A study of Mus musculus with 6 samples.

Results

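The expression of 9 genes of the bone morphogenetic protein (BMP) pathway was followed in ribosome-bound RNA of mouse lung pericytes. They were 4 ligands (Bmp2, Bmp4, Bmp5 and Bmp7), 2 secreted antagonists (Grem1 and Bmper) and 3 target genes of the Id family (Id1, Id2 and Id3). The members were chosen by name and matched through Ensembl identifiers, which found 9 genes among the 21603 in the files. RNA came from lungs of C57BL/6 mice at postnatal day 8 (P8). There were 3 control samples and 3 samples of Yap1,Wwtr1 iPCKO mutants, the pericyte knockouts of both genes. The mutants were Yap1-/-;Wwtr1-/- and the controls Yap1+/-;Wwtr1+/-, so control pericytes also carried a single functional copy of each gene after recombination. All samples carried Pdgfrb(BAC)-CreERT2, a tamoxifen-dependent Cre under the Pdgfrb promoter that is active in pericytes, and the RiboTag allele Rpl22, which gives an HA-tagged ribosomal protein after Cre recombination. Tamoxifen was given to both groups in the first days after birth. Precipitation with anti-HA beads from lysate of the whole lung can also carry over RNA of other cells. The labels do not say that libraries of a group came from separate mice, so the p-values measure the spread between these samples, which may in part be technical.

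BMPs are secreted dimers of the TGF-beta superfamily. They bind complexes of type I and type II serine/threonine kinase receptors, which phosphorylate SMAD1, SMAD5 and SMAD9, and these enter the nucleus with SMAD4. The Id genes are among their best known direct targets and encode helix-loop-helix proteins that lack a DNA-binding region and hold other transcription factors inactive. Gremlin 1, the product of Grem1, binds BMP2 and BMP4 and keeps them from their receptors, whereas BMPER binds BMPs outside the cell and can either restrain or aid signalling. In the developing lung, BMP4 takes part in branching and in the patterning of the distal epithelium. YAP1 and TAZ, the product of Wwtr1, act in the nucleus mainly through TEAD transcription factors.

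Values are RPKM, reads per kilobase of exon scaled to the size of the library, as the authors made them. Levels are set side by side between genes because they are per length, though the exonic length used for each gene is not stated. Differences are log2 fold changes (log2FC) of RPKM + 0.1, iPCKO minus control, tested with limma. A gene passed at an adjusted p-value under 0.01 (Benjamini-Hochberg) with an absolute log2FC over 0.5, and genes of at least 1 RPKM in 3 or more samples were tested. The steps between low RPKM values gave library denominators of 14.3 to 39.6 M reads, with iPCKO 3 the shallowest and iPCKO 2 the deepest library. Yap1 had 13.2, 11.5 and 12.4 RPKM in controls and 5.76, 5.83 and 5.25 RPKM in iPCKO samples, whereas Wwtr1 had 53.8 to 71.3 RPKM and 60.3 to 63.5 RPKM, and exons removed by Cre cannot be separated in a value per gene. The 9 pericyte markers were all detected, and their sums overlapped (3530 to 4397 RPKM in controls and 2967 to 3589 in mutants). Of these, 4 were higher in every mutant (Cspg4, Kcnj8, Abcc9 and Higd1b) and 4 lower (Rgs5, Notch3, Mcam and Cox4i2), as with Cspg4 at 77.1 to 87.5 and 158 to 182 RPKM and Mcam at 657 to 759 and 325 to 362 RPKM, while Pdgfrb overlapped (1369 to 1666 and 1193 to 1447 RPKM). The part of these shifts in the differences below was not tested. The mean of 4 Y-linked genes was 8.76 and 10.2 RPKM in control 1 and control 3 and at most 0.02 RPKM in the other libraries, so that control 2 alone among controls matched the mutants in this respect, and the sexes were not separated by the study. The summed RPKM of 7 neutrophil markers was 81.9 to 119 in controls and 433, 1918 and 4711 in iPCKO 1, 2 and 3, with all 7 higher in every mutant. For 8 endothelial markers the sums overlapped (184 to 194 and 179 to 192 RPKM), with 1 higher in every mutant (Kdr) and 3 lower (Emcn, Erg and Egfl7). For 8 epithelial markers the sums were 458 to 507 and 586 to 629 RPKM, with 5 of the 8 higher in every mutant. The sums of 7 leukocyte markers (41.1 to 58.1 and 82.4 to 149 RPKM) and 6 platelet markers (7.91 to 9.68 and 21.7 to 61.6 RPKM) were also higher in mutants. Those of 7 fibroblast and 6 smooth muscle markers overlapped. Of the fibroblast markers 1 was higher in every mutant (Col13a1) and 1 lower (Tcf21). Of the smooth muscle markers 2 were higher (Cnn1 and Actg2) and 1 lower (Lmod1). No marker was at 0 in any library. Endothelial and epithelial cells also express BMP pathway genes, and the part of other cells in the differences was not tested. Fewer cells of a type and less RNA per cell cannot be told apart in such samples.

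The ligand Bmp4 lies on chromosome 14 of GRCm38 (46383520 to 46390669, minus strand), the antagonist Grem1 on chromosome 2 (113746164 to 113758646, minus strand) and Bmper on chromosome 9 (23223076 to 23485200, plus strand). Their promoters are shown because Bmp4 and Bmper passed the thresholds and Grem1 had the lowest log2FC of the members. RefSeq windows (GRCm38.p6) were at hand for 6 of the 9 members, Bmp4, Bmp5, Grem1, Bmper, Id2 and Id3, and of these the windows of Bmp4, Grem1 and Bmper held no annotated exon. Each sequence gives the 250 bases before the transcription start, 5′ to 3′ on the strand of the gene, at chr14:46390670-46390919 for Bmp4, chr2:113758649-113758898 for Grem1 and chr9:23222826-23223075 for Bmper. Capitals mark a match to a searched motif.
Bmp4: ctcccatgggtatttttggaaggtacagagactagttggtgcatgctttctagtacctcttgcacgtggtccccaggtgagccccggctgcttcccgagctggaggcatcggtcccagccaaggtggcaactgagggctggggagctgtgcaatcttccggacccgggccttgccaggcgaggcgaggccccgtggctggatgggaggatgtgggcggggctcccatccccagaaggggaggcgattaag
Grem1: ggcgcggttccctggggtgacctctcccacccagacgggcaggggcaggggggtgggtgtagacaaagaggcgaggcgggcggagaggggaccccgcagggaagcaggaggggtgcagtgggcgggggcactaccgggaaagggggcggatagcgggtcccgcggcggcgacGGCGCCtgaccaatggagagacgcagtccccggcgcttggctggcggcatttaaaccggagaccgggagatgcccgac
Bmper: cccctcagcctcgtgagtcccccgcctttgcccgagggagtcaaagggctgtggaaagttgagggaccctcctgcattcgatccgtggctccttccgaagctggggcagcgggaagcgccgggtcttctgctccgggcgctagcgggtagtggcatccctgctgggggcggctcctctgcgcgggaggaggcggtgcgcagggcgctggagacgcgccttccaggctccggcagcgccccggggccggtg
The motifs searched, on both strands, were the TEAD motif GGAATG, the SMAD GC motif GGCGCC and the SMAD-binding element GTCTAGAC. No matches overlapped in the windows of these members. The match in the Grem1 window is GGCGCC, whose first base lies at -78 from the start. The same motif was found at -231 in the window of Id2, and it occurred in 9.59% of all 32851 promoter windows of this length. GGAATG was matched among the 6 members in the Id3 window alone, at -203 on the opposite strand (12.6% of all windows), and GTCTAGAC in none of the 6 (0.17% of all windows). The windows of Grem1 and Bmper had a GC content of 72.0% and 71.6%, that of Bmp4 63.2%, against a median of 52.4% over all windows.

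In control libraries the 9 genes spanned from below 1 to above 100 RPKM. Id3 had the highest level, 104 ± 12.5 RPKM (SD, n = 3), followed by Bmp5 (36.7 ± 1.23), Bmp4 (36.3 ± 1.96), Id1 (35.4 ± 1.98) and Id2 (35.3 ± 0.92 RPKM), whose ranges overlapped each with its neighbour in this order. Bmp2 (19.5 ± 2.14 RPKM) and Bmper (17.2 ± 1.27 RPKM) came next and also overlapped. Grem1 had 1.25 ± 0.09 RPKM and Bmp7 0.57 ± 0.13 RPKM, far below the rest. In iPCKO samples Id1 took the second place behind Id3, with overlapping ranges, Bmper stood above Bmp4, and Bmp7 stood above Grem1.

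**Figure D1:**
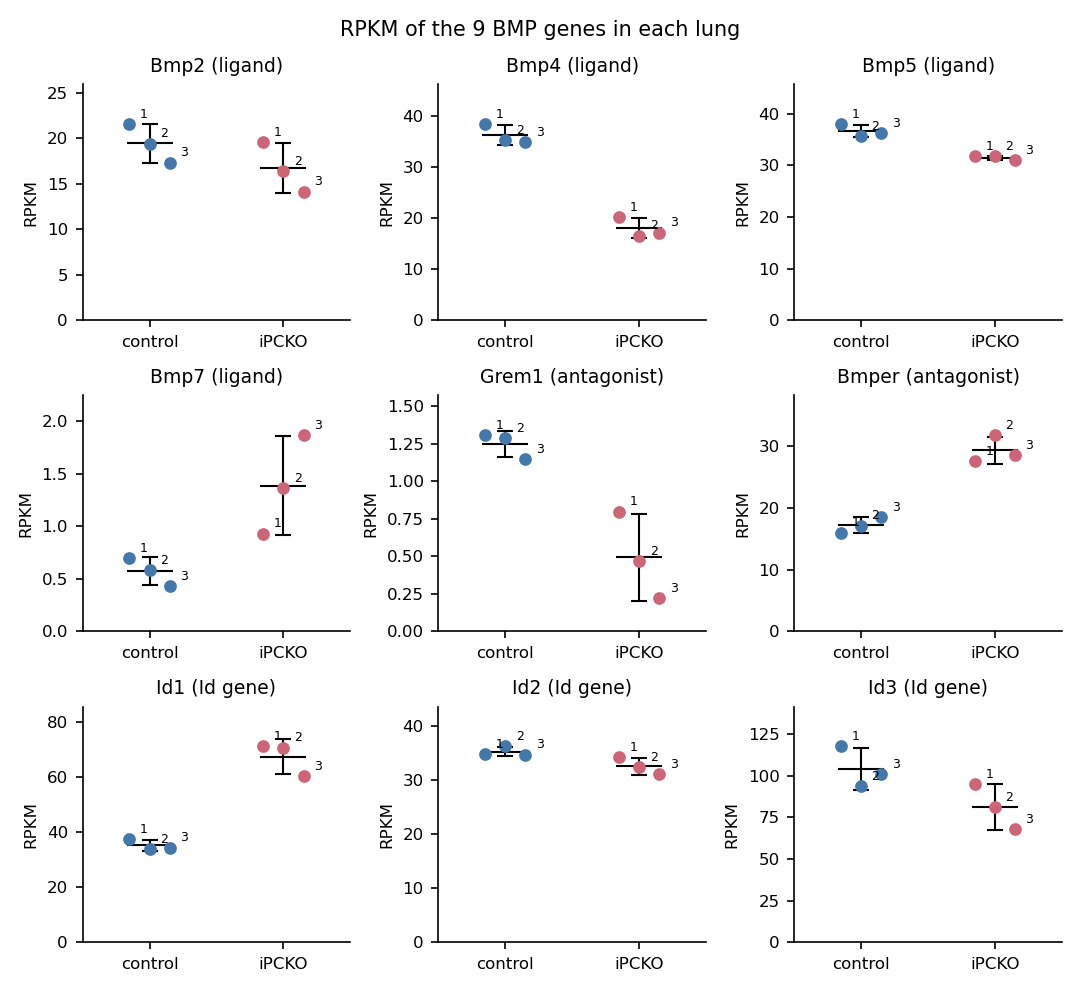
RPKM of each of the 9 BMP genes (vertical axes, linear and from 0) in the 3 control and 3 iPCKO libraries. Bars give the mean and SD, and the replicate number stands beside each point. The groups are apart for Bmp4, Bmp5, Bmp7, Grem1, Bmper, Id1 and Id2 and overlap for Bmp2 and Id3.

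Of the 8 members that could be tested, 3 passed the thresholds, against 6.79% of the 12034 genes tested. Bmp4 was lower in iPCKO samples (2.68% of all genes passed in this direction), and Bmper and Id1 were higher (4.11% of all genes). The groups did not overlap for 6 of the 8, Bmp4, Bmp5, Grem1, Bmper, Id1 and Id2, against 35.5% of all genes, and Bmp7 was too low to be tested. Grem1 passed the filter on low values only through its control samples. The median log2FC of the 8 members was -0.22, beside 0.00 for all genes tested.

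Among the ligands, Bmp4 had 38.5, 35.4 and 34.9 RPKM in the 3 controls and 20.3, 16.6 and 17.2 RPKM in the 3 iPCKO samples. Every mutant library thus lay well below every control, and the iPCKO mean was 49.7% of the control mean. Its log2FC was -1.01 (standard error 0.10, adjusted p = 0.00041, limma), and the exact two-sided permutation test of the RPKM gave p = 0.1, the smallest that 3 samples against 3 allow. Control 2, the control without Y-linked transcripts, was at 35.4 RPKM, within the range of the other controls. With Y-linked transcripts as a covariate, an alternative chosen after seeing the data, the log2FC was -0.97 but its adjusted p of 0.016 missed the threshold. Since no iPCKO library held Y-linked transcripts, that fit compares the mutants with control 2 alone. Of the 2248 exonic bases of Bmp4, 89 are shared with Gm15217 on the other strand, and whether the counting used strand is not stated.

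Bmp5 encodes a ligand of the BMP5/6/7 group. It had 38.0, 35.7 and 36.3 RPKM in controls and 31.7, 31.7 and 31.0 RPKM in iPCKO samples. The groups were apart by a small step, with a log2FC of -0.22 (95% interval -0.39 to -0.04, adjusted p = 0.096, limma), and the gene did not pass. Its exons overlap those of the antisense transcript Gm26903 over 1878 of 4025 bases. Bmp2, the ligand closest to BMP4, had 21.6, 19.4 and 17.3 RPKM in controls and 19.6, 16.4 and 14.2 RPKM in mutants. Here the groups overlapped, and the interval of the log2FC ran from -0.53 to 0.08 (estimate -0.22, adjusted p = 0.30). Relative to Bmp5 and to Bmp2, Bmp4 was lower in each mutant than in any control. The ratio of Bmp4 to Bmp5 was 1.01, 0.99 and 0.96 in controls and 0.64, 0.52 and 0.55 in mutants, and the ratio of Bmp4 to Bmp2 was 1.78 to 2.01 in controls and 1.01 to 1.22 in mutants. Such ratios within a library do not depend on its scaling.

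Bmp7, a ligand that can pair with BMP2 or BMP4 in heterodimers, went the other way. It had 0.69, 0.59 and 0.43 RPKM in controls and 0.93, 1.36 and 1.87 RPKM in iPCKO 1, 2 and 3, with no overlap, and the exact permutation test gave p = 0.1. At least 1 RPKM was reached in 2 samples only, so Bmp7 entered no fit but the one without a filter, where its log2FC was 1.12 with an adjusted p of 0.042 (limma). The RPKM steps put 55, 41 and 60 reads behind the control values and 79, 217 and 107 reads behind the mutant values, each product of RPKM, exonic length and library denominator lying within 0.05 of a whole number. The 95% Poisson interval of iPCKO 1, 0.74 to 1.16 RPKM, reached below the upper bounds of control 1 (0.90 RPKM) and control 2 (0.79 RPKM). Those of iPCKO 2 (1.19 to 1.56 RPKM) and iPCKO 3 (1.53 to 2.26 RPKM) lay above all controls. The intervals cover counting error only. iPCKO 3, with the highest Bmp7, was also the library with the highest neutrophil marker sum (4711 RPKM), and the part of that RNA in the difference was not tested.

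Summed over the 4 ligands, RPKM was 98.9, 91.1 and 88.9 in controls and 72.6, 66.1 and 64.3 in mutants, 72.8% of the control mean. Bmp4 gave 39.0%, 38.9% and 39.3% of the ligand sum in controls and 28.0%, 25.1% and 26.8% in mutants. Bmp5 held a similar share to Bmp4 in controls (38.5% to 40.8%) and the largest of the 4 in mutants (43.7% to 48.3%). Bmp7 contributed at most 2.90%, in iPCKO 3. The mean of log2(RPKM + 0.1) over the 4 genes, which weights Bmp7 like the others, differed by only -0.08.

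Of the antagonists, Bmper had 16.0, 17.1 and 18.5 RPKM in controls and 27.5, 31.8 and 28.5 RPKM in iPCKO samples. The lowest mutant thus lay far above the highest control, a rise of 1.70-fold with a log2FC of 0.77 (standard error 0.09, adjusted p = 0.0012, limma). The value stayed between 0.71 and 0.82 when each library was left out in turn, with adjusted p-values up to 0.0076. With Y-linked transcripts as a covariate the change was 0.77 with an adjusted p of 0.032, which missed the threshold, while control 2 had 17.1 RPKM.

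Grem1 differed in the opposite direction. It had 1.31, 1.29 and 1.15 RPKM in controls and 0.80, 0.47 and 0.22 RPKM in iPCKO 1, 2 and 3, so that the controls were close together and the mutants, all below them, were widely spread. Behind these values stood 107, 93 and 165 reads in controls and 70, 77 and 13 reads in mutants. The 95% Poisson intervals of the mutants, 0.62 to 1.01, 0.37 to 0.59 and 0.12 to 0.38 RPKM, left iPCKO 1 apart from iPCKO 2 and iPCKO 3, whose intervals just met. That of iPCKO 1 reached above the lowest control bound, 0.98 RPKM in control 3, and the other two lay below all control intervals. The iPCKO mean was 39.7% of the control mean, and the log2FC of -1.30 (standard error 0.35, 95% interval -2.10 to -0.50, adjusted p = 0.040, limma) did not pass. Without iPCKO 1 it was -1.66 with an adjusted p of 0.0071 and passed, and without iPCKO 3 it was -0.91. With 1 RPKM added in place of 0.1 the estimate was -0.61. Every control but no mutant reached 1 RPKM, so Grem1 met the filter only through the group where it is high. These tests are therefore no separate support for the difference. The lowest Grem1 value came from iPCKO 3, the library with the highest neutrophil marker sum and the fewest reads, and the part of either was not tested.

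**Figure D2:**
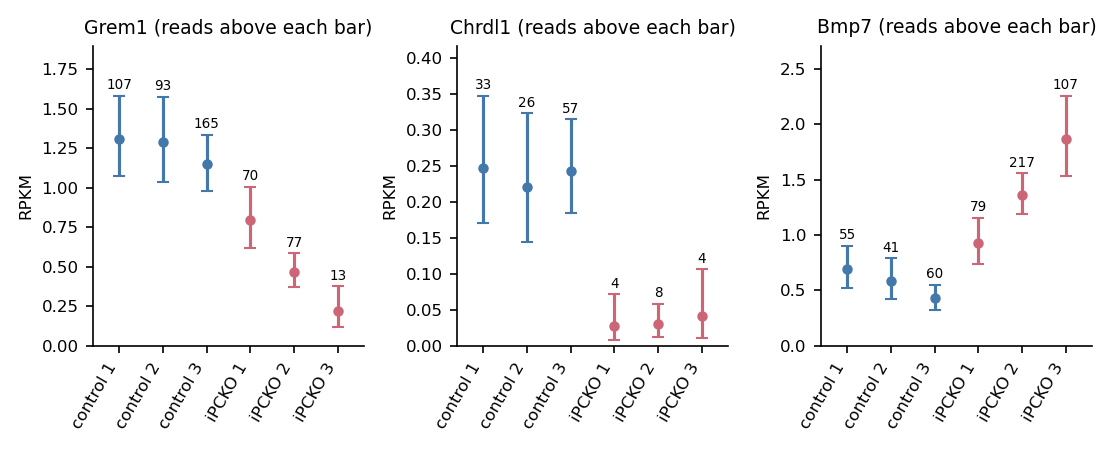
RPKM of Grem1, Chrdl1 and Bmp7 (vertical axes, linear and from 0) in each library, with 95% Poisson intervals of the reads, whose number is printed above each bar, and colours for control (blue) and iPCKO (red). Grem1 rested on 13 to 77 reads in mutants against 93 to 165 in controls, Chrdl1 on 4 to 8 against 26 to 57, and Bmp7 on 79 to 217 against 41 to 60.

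Bmper made up 92.4% to 94.2% of the summed RPKM of both antagonists in controls and 97.2% to 99.2% in mutants. The sum was 17.3, 18.4 and 19.6 RPKM in controls and 28.3, 32.2 and 28.7 RPKM in mutants, 1.62-fold the control mean. This direction belongs to Bmper, since the mean of the log2 values of both genes differed by -0.27. With the other antagonists added the log2 ratio of the sums was -0.13. That sum is weighted towards the abundant Fstl1 (means of 365 RPKM in controls and 329 in mutants) and Crim1 (149 and 107 RPKM). Neither of these passed, and the median log2FC of the 12 other antagonists and modulators tested was 0.02. The sum of Bmper and Grem1 was 17.5%, 20.1% and 22.1% of the sum of the 4 ligands in controls and 39.1%, 48.8% and 44.7% in mutants. Fstl1 and Crim1, which lie outside this sum, each stood above the ligand sum in every library. The ratio of Bmper to Bmp4 was 0.41, 0.48 and 0.53 in controls and 1.36, 1.91 and 1.65 in mutants, so Bmper was the less abundant of the pair in every control and the more abundant in every mutant. The ratio of Bmper to Grem1 was 12.2, 13.3 and 16.1 in controls and 34.6, 67.8 and 129.6 in mutants, highest in iPCKO 3, where Grem1 was lowest.

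**Figure D3:**
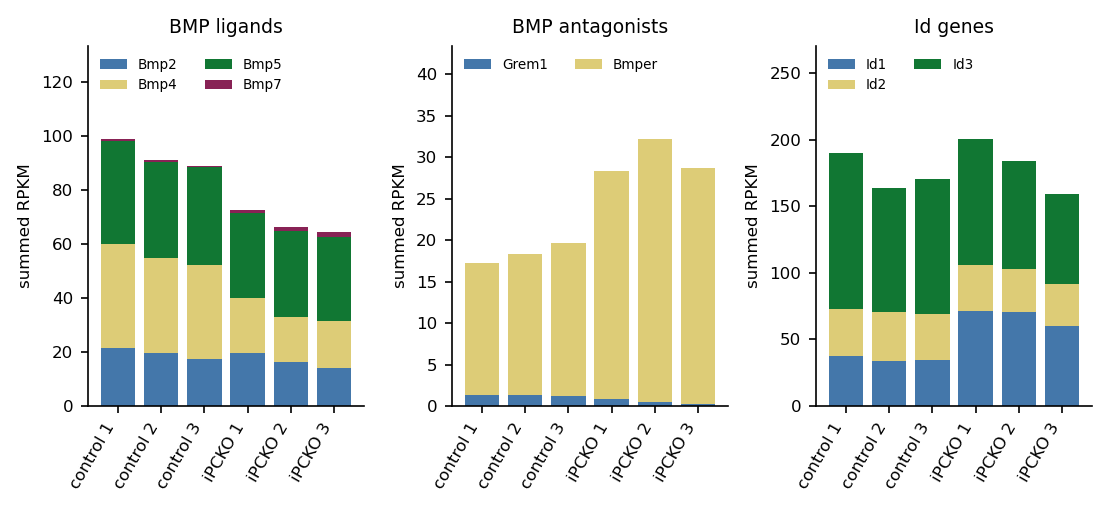
Summed RPKM (vertical axes, linear and from 0) of the 4 ligands, the 2 antagonists and the 3 Id genes in each of the 6 libraries, stacked by gene. The ligand sums were 88.9 to 98.9 in controls and 64.3 to 72.6 in mutants, the antagonist sums 17.3 to 19.6 and 28.3 to 32.2, and the Id sums 164 to 190 and 159 to 201.

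The Id genes did not move as a group. Id1 had 37.7, 34.0 and 34.5 RPKM in controls and 71.5, 70.8 and 60.3 RPKM in iPCKO samples, which were all far above the controls. The rise was 1.91-fold, with a log2FC of 0.93 (standard error 0.10, adjusted p = 0.00056, limma), and it was 0.88 to 1.01 when each library was left out in turn. With Y-linked transcripts as a covariate the log2FC was 0.98 and the adjusted p 0.014, short of the threshold. Control 2 had 34.0 RPKM, the lowest of the controls.

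Id2 and Id3 did not pass. Id2 had 34.8, 36.3 and 34.7 RPKM in controls and 34.2, 32.5 and 31.1 RPKM in mutants. The groups were apart by less than 1 RPKM, and the log2FC was -0.12 (95% interval -0.30 to 0.07, adjusted p = 0.38, limma). Id3 had 118, 93.5 and 101 RPKM in controls and 94.9, 81.0 and 67.8 RPKM in mutants, with iPCKO 1 just above control 2. Its log2FC of -0.36 had an interval of -0.69 to -0.04 and an adjusted p of 0.13. Both intervals lie below that of Id1, 0.70 to 1.15.

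Within each library, Id1 was about as abundant as Id2 in controls (ratios of 1.08, 0.94 and 0.99) and the more abundant in mutants (2.09, 2.18 and 1.94). The ratio of Id1 to Id3 was 0.32, 0.36 and 0.34 in controls and 0.75, 0.87 and 0.89 in mutants. The share of Id1 in the Id sum was 19.8% to 20.8% in controls and 35.6% to 38.4% in mutants, while that of Id3 was 57.1% to 61.9% and 42.6% to 47.3%. The Id sum itself overlapped between the groups, with 190, 164 and 170 RPKM in controls and 201, 184 and 159 RPKM in mutants. Its log2 ratio of 0.05 changed sign without iPCKO 1 (-0.03).

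Of the 9 members, 6 had their lowest mutant value in iPCKO 3 (Bmp2, Bmp5, Grem1, Id1, Id2 and Id3), as did 44.5% of all genes tested. Of the members that passed, Id1 was lowest in iPCKO 3, Bmp4 in iPCKO 2 and Bmper in iPCKO 1.

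The other genes of the pathway were read from 5 lists with 51 genes, of which 34 could be tested. Of these, 4 passed the thresholds, 2 higher and 2 lower, beside 6.79% of all genes, with 30 not called, and the median log2FC of the 34 was -0.01. Of the 10 other ligands, 2 could be tested and none passed (limma), neither at an unadjusted p under 0.05. The higher of these, Bmp6, had 6.23, 6.59 and 7.12 RPKM in controls and 5.76, 7.08 and 5.09 RPKM in mutants, with overlapping groups.

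Of 17 further antagonists and extracellular modulators, 12 could be tested, and 1 was higher and 1 lower. Fst encodes follistatin, which binds activins and, less tightly, BMPs. It rose from 4.04, 3.66 and 4.59 RPKM in controls to 13.3, 17.3 and 13.6 RPKM in mutants, a 3.60-fold difference without overlap and the largest log2FC among all the BMP genes tested (1.82, standard error 0.13, adjusted p = 8.1e-05, limma). Fst passed in all 15 fits, the one with the Y-linked covariate included (adjusted p = 0.0021). Of its 4589 exonic bases, 115 are shared with the antisense Gm47040. Fstl3, a related inhibitor of activins, had 15.5, 12.4 and 14.1 RPKM in controls and 8.58, 8.97 and 9.01 RPKM in mutants, with a log2FC of -0.65 (adjusted p = 0.0034). It missed the threshold without control 3 (adjusted p = 0.019), iPCKO 2 (0.017) or iPCKO 3 (0.012). With the Y-linked covariate its log2FC of -0.48 (adjusted p = 0.10) met neither limit. Of its 2445 exonic bases, 1157 are shared with Prss57 on the other strand. Fstl1, the most abundant gene of this list, had 354 to 375 RPKM in controls and 319 to 347 RPKM in mutants and did not pass (log2FC -0.15, interval -0.39 to 0.09).

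Further antagonists and modulators outside the naming rule were picked after their values had been seen. Nog, which encodes noggin, an inhibitor of BMP2 and BMP4, had 1.40, 1.31 and 0.91 RPKM in controls and 3.37, 2.26 and 1.86 in mutants. The mutants lay above all controls, but its adjusted p of 0.030 (limma) did not pass. Sost was also higher in every mutant (2.16 to 3.14 RPKM in controls and 3.53 to 7.38 in mutants) and did not pass (adjusted p = 0.033, limma). The abundant Crim1 went the other way, with 128 to 160 RPKM in controls and 99.7 to 116 RPKM in mutants. It did not pass either (log2FC -0.46, adjusted p = 0.033, limma). Chrdl1, an X-linked gene for a chordin-like inhibitor, was under the filter in every library. It had 0.25, 0.22 and 0.24 RPKM in controls and 0.03, 0.03 and 0.04 RPKM in mutants, from 33, 26 and 57 reads against 4, 8 and 4 reads. In the fit without a filter its log2FC was -1.34 (adjusted p = 0.0017, limma), which the added 0.1 RPKM compresses, since the ratio of the mean RPKM was 7.16-fold.

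Among 11 receptors and co-receptors, 9 could be tested and 1 passed. Acvr2a, a type II receptor shared by activins and BMPs, had 16.1, 16.2 and 16.1 RPKM in controls and 11.3, 10.03 and 10.50 RPKM in mutants. The controls were almost identical and the mutants all lower, with a log2FC of -0.60 (standard error 0.08, adjusted p = 0.0020, limma). It missed the threshold without control 2 (adjusted p = 0.010), control 3 (0.013) or iPCKO 2 (0.014) and with the Y-linked covariate (0.050), with log2FC values of -0.61 to -0.56. Orc4 shares 446 of its 5686 exonic bases. The type II receptor Bmpr2 and the type I receptor Bmpr1a had log2FC values of 0.04 (interval -0.16 to 0.23) and 0.03 (interval -0.23 to 0.28). Eng, the co-receptor endoglin and the most abundant of this list, had 117, 87.9 and 88.6 RPKM in controls and 82.1, 71.9 and 68.2 RPKM in mutants and did not pass (adjusted p = 0.087). Rgma, also listed among receptors and co-receptors, had 6.98, 4.26 and 5.09 RPKM in controls and 11.9, 10.9 and 7.44 RPKM in mutants. Its log2FC of 0.88 was the highest of this list, and it did not pass (adjusted p = 0.027, limma).

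None of the 6 SMAD and SMURF genes passed (limma), with Smad4 and Smurf2 at an unadjusted p under 0.05 (0.042 and 0.011), and their log2FC values ranged from -0.26 to 0.23. Smad4, the common partner, had the highest level, with 38.5 to 42.7 RPKM in controls and 33.8 to 36.2 RPKM in mutants (adjusted p = 0.15). Of 7 further target and feedback genes, 5 could be tested and 1 passed. Hey1, a transcription factor gene that responds to Notch and to BMP signals, had 7.53, 6.59 and 7.16 RPKM in controls and 10.4, 10.9 and 10.1 RPKM in mutants, a log2FC of 0.55 (adjusted p = 0.0042). It missed the threshold without control 2, control 3, iPCKO 2 or iPCKO 3, with adjusted p-values of 0.021, 0.021, 0.027 and 0.012, and with the Y-linked covariate (0.038). Smad7, an inhibitory SMAD and the most abundant of these, had 20.6 to 23.7 RPKM in controls and 23.1 to 29.0 RPKM in mutants, with a log2FC of 0.21 (interval -0.04 to 0.46). Atoh8 went the other way, with 9.01, 8.74 and 8.25 RPKM in controls and 5.40, 7.07 and 5.66 RPKM in mutants. It did not pass (log2FC -0.52, adjusted p = 0.0185, limma). Smad6 was higher in every mutant and did not pass either (log2FC 0.26, adjusted p = 0.10, limma).

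**Figure D4:**
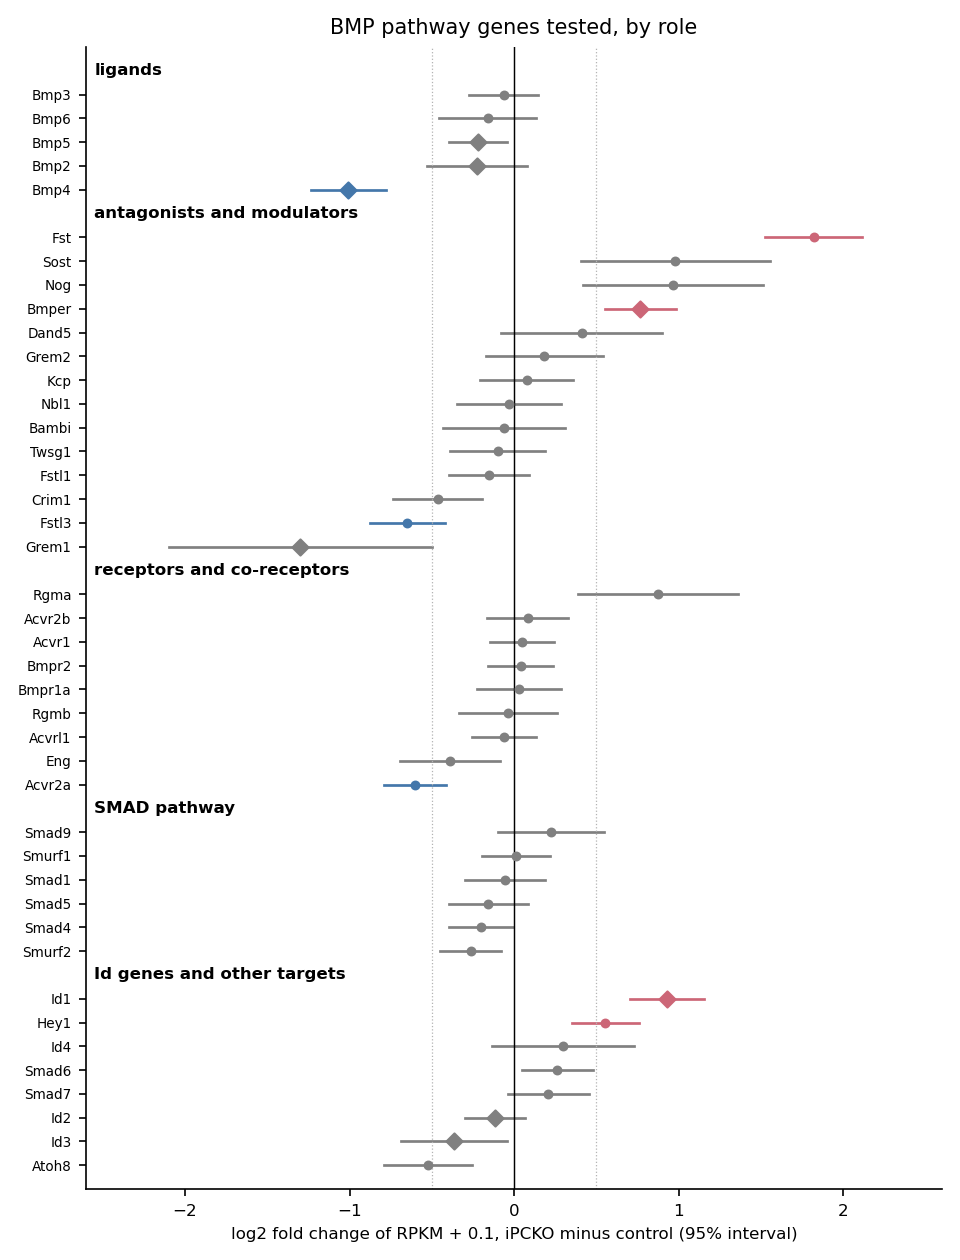
Log2 fold change (log2FC) of RPKM + 0.1 (horizontal axis, iPCKO minus control) with 95% intervals for the 8 members (diamonds) and 34 other BMP pathway genes (circles) that could be tested, grouped by role. Genes past the thresholds are red (Bmper, Id1, Fst and Hey1) or blue (Bmp4, Fstl3 and Acvr2a), all others grey, and dotted lines mark a log2FC of 0.5 in either direction.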

How the data were processed

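RNA bound to HA-tagged ribosomes was sequenced from 3 control and 3 Yap1,Wwtr1 iPCKO lung samples, grouped by their labels. Per the study's methods and the submitters' processing notes, the authors aligned paired-end reads of stranded libraries with TopHat to mm10 (GRCm38), assigned them to genes with HTSeq 0.6.1 and tested them with DESeq2. The authors deposited RPKM for 21603 genes per sample, and the exonic length behind each value is not stated. RPKM are not counts, so limma 3.58.1 (R 4.3.3) was fitted to log2(RPKM + 0.1) of 12034 genes with an intensity trend, Benjamini-Hochberg adjustment and the thresholds of the study. Symbols and coordinates came from GENCODE M21 (GRCm38). Hjv was matched by its older symbol Hfe2.

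The members, gene lists, alternatives and the fit were chosen with earlier results of these data known. Of the genes named, all 9 members, the pathway genes past the thresholds and the most abundant of each list follow the rule. Nog, Sost, Crim1, Chrdl1, Rgma, Bmpr1a, Bmpr2, Smurf2, Atoh8 and Smad6, named after their values were seen, do not. Simulated data with known changes were used to check the fit. Library denominators were found as the values at which low RPKM of single-transcript genes became whole reads (76.1% to 78.8% of genes of up to 10 reads within 0.02 reads). They give the precision of low values and no counts were tested. Alternatives changed the pseudocount, filter, scaling, thresholds, variance trend and replicate block and left out each library. Sums and ratios over members carry no test, and no gene set test was run. Tables and exact permutation tests were made in Python 3.11.15 (scipy 1.17.1, pandas 2.3.3).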

Additional observations from a re-analysis of the deposited data

How the results depend on the processing

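The changes of Bmp4, Bmper and Id1 kept their direction and passed the thresholds in 13 of 14 alternatives each, among them pseudocounts of 1 and 0.01 RPKM, other filters, median-ratio scaling and each library left out. The exception was the fit with Y-linked transcripts as a covariate, chosen after seeing the data. It left 124 genes past the thresholds in place of 817, 0 of the members (limma, 4 at an unadjusted p under 0.05) and 1 of the other pathway genes in place of 4. By its construction it compares the mutants with control 2 alone. Leaving out each library gave 382 to 899 genes, 3 to 4 members and 1 to 4 other pathway genes, with 2 of the latter without control 2 or iPCKO 3 and 1 without control 3 or iPCKO 2. Of all genes, 382, 414 and 499 passed without control 3, iPCKO 2 and iPCKO 3. At an adjusted p under 0.05, 1313 genes and 8 other pathway genes passed. At an absolute log2 fold change over 1, these numbers were 411 and 1, with 1 member (Bmp4).

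To see whether samples of the same replicate number deviated together, the group mean of log2(RPKM + 0.1) was subtracted from each library. Over all genes tested, these deviations had r = 0.24, 0.09 and 0.02 for the 3 pairs with the same replicate number. Those values lay within the range of the unlike pairs (-0.30 to 0.27). The fit with the replicate block gave 922 genes, 3 members and 6 other pathway genes, Nog and Rgma in addition. It lowered the standard error of Bmp2 from 0.134 to 0.081 and that of Id3 from 0.142 to 0.101, and neither passed. That of Bmp5 stayed at 0.077. Grem1, which met the filter only through its controls, passed in 1 of 13 alternatives, without iPCKO 1 (log2 fold change -1.66). It was lost to the filter of 1 RPKM in all 6 samples.

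The log2 ratio of the ligand sums was -0.46 and -0.083 as a mean of log2 values, -0.51 to -0.41 with libraries left out. For the antagonist sums it was 0.69, reversed to -0.27 as a mean of log2 values and to -0.13 with the other antagonists added. For the Id sums it was 0.05, and -0.026 to 0.14 with libraries left out, the lowest without iPCKO 1. Grem1, Bmp7 and Chrdl1 rested on 4 to 217 reads a library, which limits their precision.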
